A study of Homo sapiens with 19 samples.

Results

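Human A549 cells, an established lung adenocarcinoma line, grown as monolayers were compared at 24 h and right after nanostraw electroporation (NEE). In NEE, cells sit on a membrane studded with hollow nanostraws, brief voltage pulses open their plasma membrane, and cytosolic RNA passes through the straws and can be collected while the cells live on. The libraries were chosen by their labels, with no measured value: replicates 1 and 2 of monolayers 24 h after NEE against replicates 1 and 2 of monolayers right after NEE, which are 4 of the 19 samples. Genes were kept where at least 2 of these 4 libraries reached a CPM of 1 or more, CPM being counts scaled to the size of the library, which left 13407 of the 62700 genes in the count files. The study followed A549 monolayers and spheroids before, right after, 2 h after and 24 h after NEE by Smart-Seq2 on total RNA of the lysed cultures, with 2 biological replicates of each, and added 3 technical replicates of RNA sampled by NEE. Both groups compared here had been through NEE, and no labelled group had spent the same 24 h in culture without it, so time since NEE and a further day of growth cannot be told apart. Replicate 1 of the monolayers before NEE was left out because it held leukocyte RNA: 19 natural killer and T cell markers summed to 668 CPM there, against 26.1 to 27.6 CPM right after NEE and 19.0 to 20.7 CPM at 24 h.

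The 4 libraries held 17679586 to 22009279 counts each, so 3 counts, taken as the limit that a count of 0 allows, came to 0.136 to 0.17 CPM, for counting error only. Protein-coding genes took 98.7% to 98.8% of the counts, and all 37 mitochondrially encoded genes were listed at 0. The 9 A549 lung epithelial markers were all tested and summed to 31604 to 41386 CPM right after NEE and 33592 to 43419 CPM at 24 h. Of the natural killer and T cell markers 9 of 19 passed the filter, none of the 19 was at 0 in all 4 libraries, and their part in the results below was not tested. None of 6 B cell markers and none of 6 erythroid markers passed the filter, with MS4A1, HBA2 and AHSP among those at 0 in all 4 libraries. Of the monocyte and macrophage markers 2 of 10 passed, of the fibroblast markers 3 of 8 and of the endothelial markers 1 of 6. Monocyte and macrophage markers summed to 11.5 to 28.7 CPM right after NEE and 21.6 to 23.9 CPM at 24 h. In replicate 1 before NEE they summed to 29.5 CPM. The part of these lists in the results below was not tested either. Levels below are TMM-scaled CPM per library, and log2 fold changes are 24 h minus right after NEE, with the standard error (SE) of edgeR's fit.

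Electroporation opens the plasma membrane, through which ions, RNA and small molecules can leak until the cell reseals it. Immediate early genes such as FOS and NR4A1 are transcribed within minutes of growth factors, calcium entry or handling of the culture, and their short-lived mRNAs decline again within hours. A growing A549 culture also carries RNA of the cell cycle, and because this line has lost the function of KEAP1, the repressor of the transcription factor NRF2, it expresses antioxidant and detoxifying NRF2 target genes at a high basal level.

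No gene differed between 24 h and right after NEE beyond the spread of the libraries (0 of 13407 genes, 0.0%, edgeR quasi-likelihood test, Benjamini-Hochberg adjusted p under 0.05). At an unadjusted p under 0.05 there were 248 genes (1.85%), 116 of them with the higher mean at 24 h (0.865%) and 132 with the lower (0.985%), and with the replicate number as a block there were 448 and again 0 past the adjusted p. DESeq2 on the same libraries called 2 genes, FTH1 with the higher mean at 24 h (DESeq2 adjusted p = 0.00454) and NPTXR with the lower (DESeq2 adjusted p = 0.0239). Without the filter on low counts edgeR called 43 of 34650 genes, of which 38 were among the 13407, 29 of these did not overlap between the groups, and 28 of the 38 had replicates of a group at least 2-fold apart. Among the 43 were CA9, CXCL2, CYP1A1, DUSP1, FOS, ATF3 and CCN2, whose values are given below. Their edgeR adjusted p without the filter ran from 3.07e-10 for CA9 to 0.0327 for CCN2. In the main fit, with the filter, the edgeR adjusted p was 0.999 for every gene whose values follow, so these values are given as levels and not as changes.

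Single libraries of the same group lay as far apart as libraries of different groups. Among 10159 genes with at least 5 CPM, 753 (7.41%) were 2-fold or more apart between the replicates right after NEE and 843 (8.3%) between the replicates at 24 h. Between a single library at 24 h and a single library right after NEE this count ran from 528 (5.2%) to 785 (7.73%). The group means were 2-fold or more apart for 161 genes (1.58%), and among these the libraries did not overlap for 46 genes with the higher mean at 24 h (0.453%) and 87 with the lower (0.856%). Over all 13407 genes, both 24 h libraries lay above both libraries taken right after NEE for 1854 genes (13.8%) and below them for 1917 (14.3%), and these shares are the background for each list below.

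**Figure D1:**
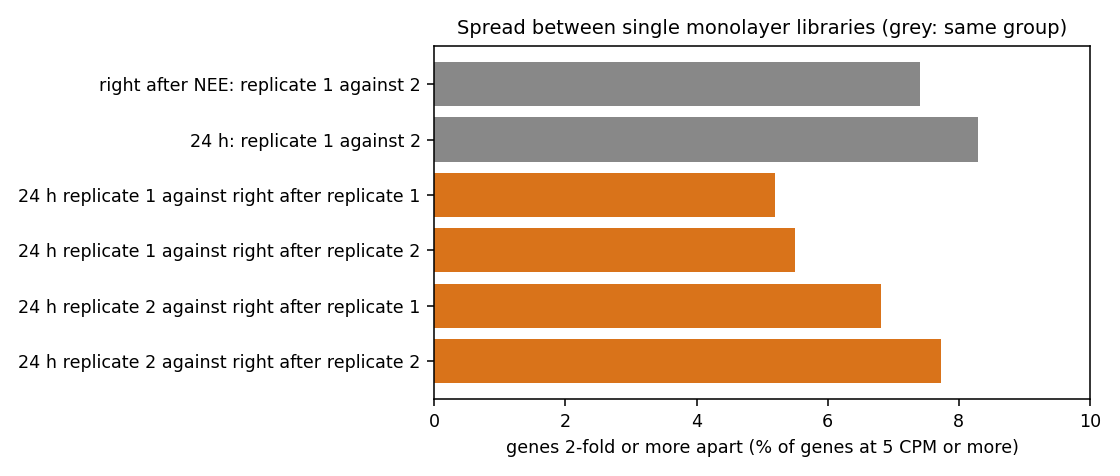
Share of the 10159 genes at 5 CPM or more that were 2-fold or more apart between single monolayer libraries, as a percentage (horizontal axis), for each pair of libraries (vertical axis). The 2 grey bars compare replicates of the same group (7.41% and 8.3%), and the 4 orange bars, from 5.2% to 7.73%, compare 24 h with right after NEE.

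The gene with the smallest p, FTH1 (chr11:61959718-61967660, minus strand, GRCh38 by GENCODE release 29), encodes the heavy chain of ferritin, which stores iron. Its level was 264 and 261 CPM right after NEE and 462 and 440 CPM at 24 h. The libraries of each time lay close together and did not overlap with the other time, and the ratio of the means was 1.72 (log2 fold change 0.78 ± 0.14 SE). FTH1 has many processed pseudogenes, and how reads matching several places were counted is not given in the sources used here, so its level is uncertain. FTL, the light chain of ferritin, stood at 6787 and 6313 CPM right after NEE and 9386 and 12005 CPM at 24 h (0.71 ± 0.38 SE), again without overlap and again with pseudogene copies.

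The other genes named by smallest p among those with the higher mean at 24 h, of which 10 are reported, did not overlap between the groups either, as their choice required. GCLC, the catalytic subunit of the enzyme that starts glutathione synthesis, stood at 24.7 and 21.4 CPM right after NEE and 49.0 and 40.7 CPM at 24 h (0.96 ± 0.30 SE). CA9, a cell surface carbonic anhydrase known as a hypoxia target, was near the filter with 0.818 and 1.25 CPM right after NEE and reached 3.05 and 10.1 CPM at 24 h (2.65 ± 0.76 SE). The 24 h libraries differed from each other more than 3.05 CPM does from the libraries right after NEE, so its size is poorly fixed. CA9 met the filter only with the libraries at 24 h, where it is high, so its difference adds no support. CDKN3, a phosphatase that acts on cyclin-dependent kinases, stood at 47.6 and 42.0 CPM right after NEE and at 74.3 and 95.0 CPM at 24 h (0.92 ± 0.29 SE). PTTG1, or securin, which restrains the separation of sister chromatids until anaphase, stood at 37.4 and 29.4 CPM against 52.0 and 77.2 CPM at 24 h (0.95 ± 0.31 SE). Both cell cycle genes had their highest value in replicate 2 at 24 h.

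The remaining 6 serve a range of functions. TMEM37, a membrane protein related to calcium channel subunits, stood at 15.5 and 18.2 CPM right after NEE and 30.0 and 27.5 CPM at 24 h (0.77 ± 0.21 SE). P2RY6, a receptor for extracellular UDP, stood at 18.9 and 16.4 CPM against 35.4 and 28.2 CPM at 24 h (0.85 ± 0.24 SE). In both the replicates lay closer to each other than the groups did, which a choice by no overlap and smallest p favours. TXNDC16, a thioredoxin domain protein, had a log2 fold change of 1.71 from levels of 2.62 and 1.96 CPM right after NEE. For ZSCAN12, a zinc finger protein, it was 1.17, for PAN2, a subunit of an mRNA deadenylase, 0.92, and for TRIM24, a chromatin reader and ubiquitin ligase, 1.03.

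**Figure D2:**
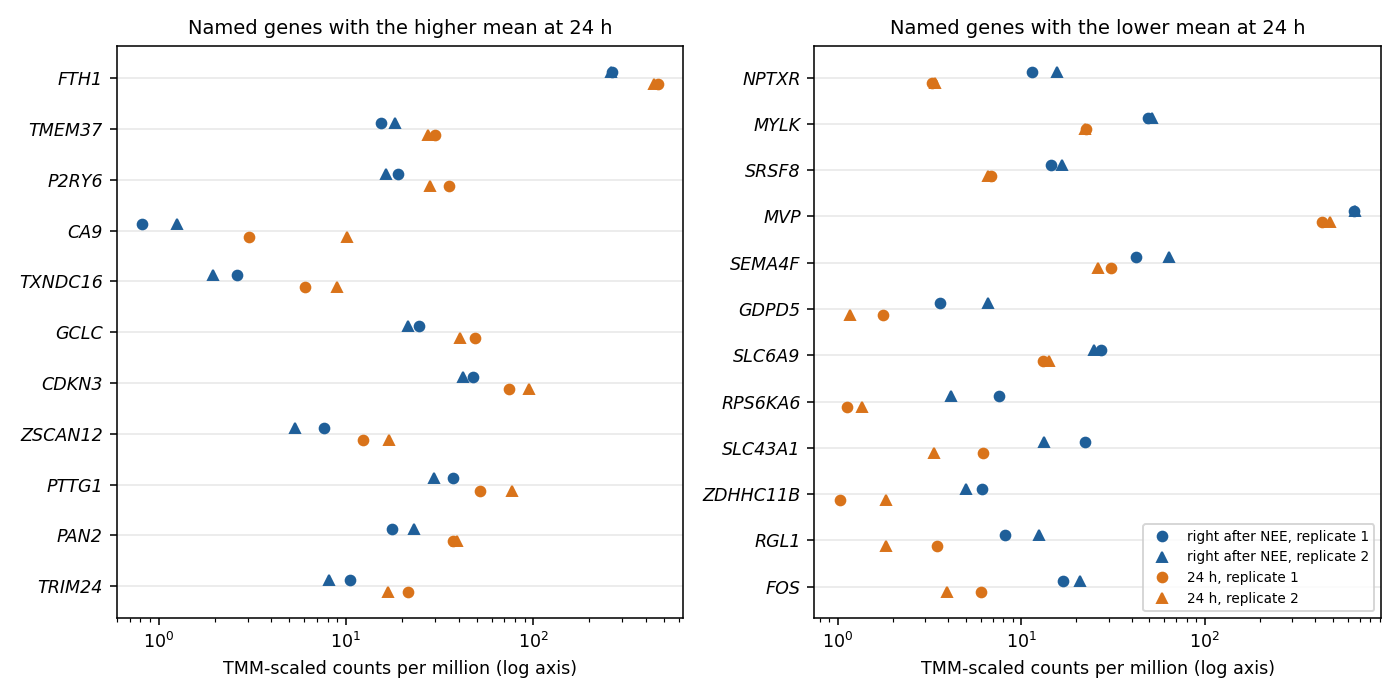
TMM-scaled CPM (horizontal log axis) in each of the 4 monolayer libraries for 11 of the 12 named genes with the higher mean at 24 h (left) and the 12 with the lower mean (right), ordered by p within each side. Blue marks are libraries right after NEE and orange marks 24 h, with circles for replicate 1 and triangles for replicate 2, and in each gene the 2 colours do not overlap, as the choice of genes required.

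On the lower side, the smallest p belonged to NPTXR (chr22:38818452-38843982, minus strand), the neuronal pentraxin receptor. It stood at 11.4 and 15.6 CPM right after NEE and at 3.27 and 3.38 CPM at 24 h, a mean 4.07 times higher right after NEE (log2 fold change −2.02 ± 0.42 SE). MYLK (chr3:123610049-123884331, minus strand), the kinase that phosphorylates the myosin light chain, stood at 49.3 and 51.9 CPM right after NEE against 22.6 and 22.4 CPM at 24 h (−1.17 ± 0.28 SE). SRSF8, a splicing factor, stood at 14.6 and 16.6 CPM against 6.83 and 6.61 CPM at 24 h (−1.21 ± 0.32 SE). In all 3 genes both libraries at 24 h were nearly equal, which the same choice by no overlap and smallest p favours. MVP, the main protein of vault particles and the most abundant of the 12 by CPM, stood at 650 and 662 CPM right after NEE and 437 and 484 CPM at 24 h (−0.51 ± 0.14 SE).

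Transporters and signalling genes made up much of the rest. SLC6A9, a glycine transporter, stood at 27.1 and 24.9 CPM right after NEE and at 13.2 and 14.2 CPM at 24 h (−0.93 ± 0.28 SE). SLC43A1, a carrier of neutral amino acids, stood at 22.3 and 13.3 CPM against 6.19 and 3.33 CPM at 24 h (−1.90 ± 0.60 SE). RPS6KA6, a kinase of the ribosomal S6 kinase family, and RGL1, an exchange factor for Ral GTPases, had log2 fold changes of −2.23 and −1.96. For SEMA4F, a semaphorin, GDPD5, a glycerophosphodiesterase, and ZDHHC11B, of the palmitoyltransferase family, the values were −0.89, −1.80 and −1.95. RPS6KA6, GDPD5 and ZDHHC11B lay between 1.03 and 1.83 CPM at 24 h, close to the filter, so small counts weigh in their ratios.

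The twelfth gene on the lower side was FOS, the founding member of the AP-1 transcription factors, which dimerise with JUN proteins. FOS stood at 16.8 and 20.8 CPM right after NEE and at 6.02 and 3.96 CPM at 24 h (−1.91 ± 0.63 SE), while the libraries 2 h after NEE held 40.6 and 79.4 CPM. Its paralog FOSB followed the same order at lower levels, with 1.96 and 4.25 CPM right after NEE, 39.1 and 40.7 CPM at 2 h and 0.602 and 0.628 CPM at 24 h (−2.32 ± 0.97 SE). Among the libraries compared, FOSB passed the filter only through those right after NEE, where it is high, so its difference adds no support. For both genes the lowest values of the 3 times were those at 24 h, and none of the 3 times overlapped with another. The 250 bases before the start site of both genes are shown because each holds the TGACGT core of the cAMP response element, the binding sequence of CREB and ATF factors, marked in capitals, at bases −64 to −59 in FOS and −60 to −55 in FOSB, counted from the start site (RefSeq, GRCh38.p14, 5′ to 3′).
FOS (chr14:75278578-75278827, plus strand): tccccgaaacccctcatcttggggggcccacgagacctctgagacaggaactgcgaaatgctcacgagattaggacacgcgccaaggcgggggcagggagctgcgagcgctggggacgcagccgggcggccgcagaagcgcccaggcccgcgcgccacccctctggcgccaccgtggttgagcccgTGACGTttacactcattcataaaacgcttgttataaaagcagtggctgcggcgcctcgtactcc
FOSB (chr19:45467746-45467995, plus strand): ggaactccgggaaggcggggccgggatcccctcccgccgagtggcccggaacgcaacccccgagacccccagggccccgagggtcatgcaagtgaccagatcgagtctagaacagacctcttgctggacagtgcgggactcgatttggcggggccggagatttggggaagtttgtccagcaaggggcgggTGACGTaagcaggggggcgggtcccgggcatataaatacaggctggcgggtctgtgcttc
A match of letters describes the sequence and is no measured site. Over the window from 250 bases before to 50 bases after a start, searched on both strands, 6 of 16 immediate early genes with a RefSeq promoter held TGACGT, against 14.3% of 10160 tested genes with one. The CArG box, bound by serum response factor, lay in 2 of the 16 and in 1.5% of the 10160.

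ATF3, NR4A1 and KLF10 took the same order of times. The first of them, ATF3, a stress-induced factor that dimerises with AP-1 proteins, stood at 7.63 and 20.2 CPM right after NEE, 48.8 and 82.3 CPM at 2 h and 4.86 and 2.56 CPM at 24 h (24 h minus right after, −1.90 ± 1.09 SE). NR4A1, an orphan nuclear receptor, stood at 42.7 and 30.4 CPM, then 287 and 201 CPM, then 23.2 and 10.4 CPM (−1.12 ± 0.55 SE). KLF10, a zinc finger factor induced by growth factors, stood at 198 and 226 CPM, then 283 and 274 CPM, then 121 and 111 CPM (−0.87 ± 0.54 SE). In all 3 the libraries at 24 h lay below those right after NEE. DUSP1, the phosphatase that switches off MAP kinases, did not follow this order: it stood at 185 and 322 CPM right after NEE, 439 and 275 CPM at 2 h and 159 and 35.6 CPM at 24 h (−1.38 ± 0.88 SE), so 1 library at 2 h lay below 1 right after NEE and the replicates at 24 h differed by more than 2-fold.

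Of 12 AP-1 subunits 10 passed the filter, and 4 of them (ATF3, FOS, FOSB and FOSL2) lay lower in both 24 h libraries while none lay higher in both. FOSB met the filter only with the libraries right after NEE, so its side was set by the filter. It adds no support to this count or to the medians below. Of 18 genes of the EGR, NR4A and KLF families and other immediate early factors 12 passed, with 4 lower (KLF10, MYC, NR4A1 and NR4A2) and 0 higher in both. Over both lists the median log2 fold change was −0.58 in the 22 genes tested, against −0.01 over all genes tested, and 5 of the 22 were positive, against 48.8% of all genes. FOSL2 stood at 54.2 and 56.0 CPM right after NEE and 35.9 and 38.7 CPM at 24 h (−0.56 ± 0.41 SE), and KLF6, a Krüppel-like factor, overlapped with 68.7 and 129 CPM against 62.8 and 72.6 CPM. These medians came mostly from 1 library of each time. On the log2(CPM + 1) scale the AP-1 median lay at −0.02 and 1.04 in the libraries right after NEE and at 0.04 and −0.76 at 24 h, each relative to the mean of the 4 libraries, so replicate 1 was level at both times. The AP-1 median of −0.98 ran from −2.08 to −0.33 when 1 library was left out, the former without replicate 1 at 24 h, and the median of the other list was −0.05 without replicate 2 right after NEE.

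**Figure D3:**
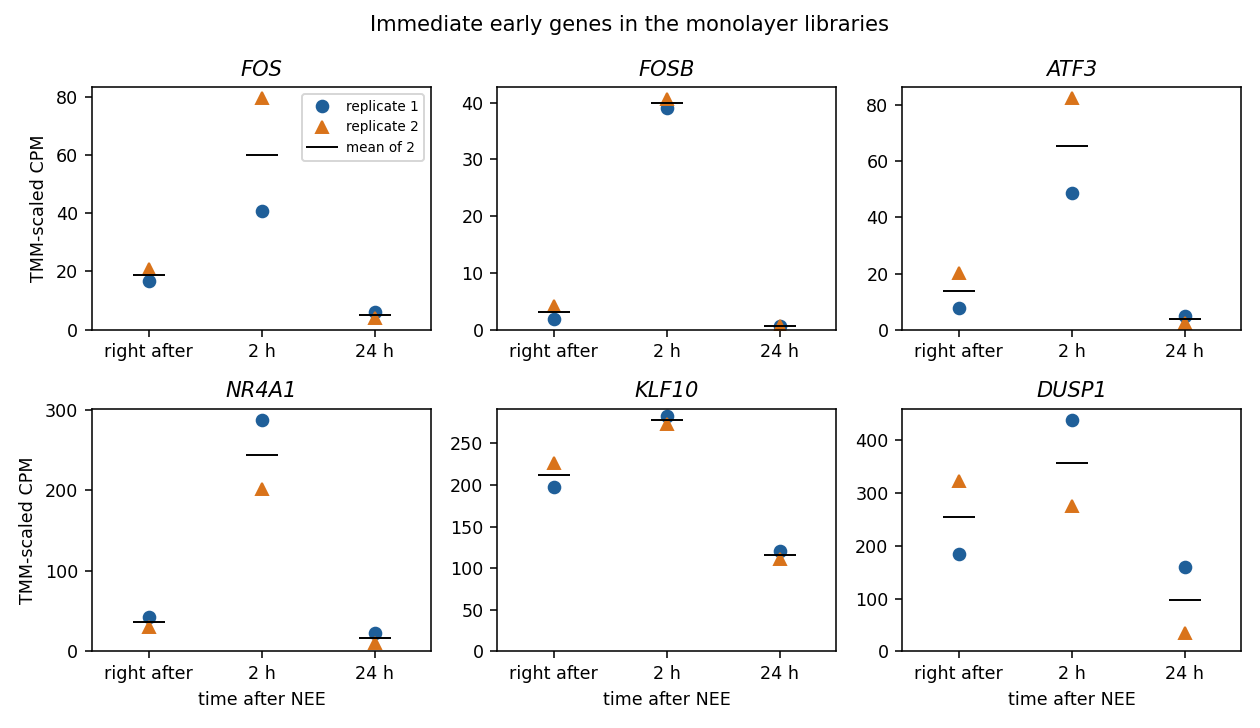
TMM-scaled CPM (vertical axis, from 0) of FOS, FOSB, ATF3, NR4A1, KLF10 and DUSP1 in the monolayer libraries right after, 2 h after and 24 h after NEE, with circles for replicate 1, triangles for replicate 2 and a dash for the mean of the 2. FOS was at 40.6 and 79.4 CPM at 2 h and at 6.02 and 3.96 CPM at 24 h, below its 16.8 and 20.8 CPM right after NEE.

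Genes downstream of growth factor signalling were mixed. Of 18 MAP kinase feedback genes 15 passed the filter, with 5 lower and 1 higher in both 24 h libraries and a median of −0.13. With single libraries left out that median ran from −0.27, without replicate 1 right after NEE, to −0.09. DUSP10, a phosphatase of stress-activated kinases, stood at 18.9 and 22.8 CPM right after NEE and 13.1 and 13.5 CPM at 24 h (−0.65 ± 0.34 SE), while SPRED1, an inhibitor of the RAS pathway, stood at 3.49 and 3.70 CPM against 6.88 and 6.23 CPM (0.86 ± 0.38 SE). These 2 feedback genes lay on opposite sides, each without overlap. EGFR, the receptor of epidermal growth factor, stood at 148 and 126 CPM right after NEE and 89.5 and 86.0 CPM at 24 h (−0.64 ± 0.28 SE). Its ligand EREG stood at 152 and 102 CPM against 78.4 and 76.7 CPM (−0.72 ± 0.38 SE). Of 9 tested genes of the EGF family, 3 lay lower and 2 higher in both 24 h libraries.

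Most genes of G2 and mitosis had higher means at 24 h. Of 46 listed genes 45 passed the filter, 43 had a positive log2 fold change and 19 lay higher in both 24 h libraries, while 0 lay lower in both, with a median of 0.29. PTTG1, given above, was 1 of them. CCNB2, a cyclin that drives entry into mitosis, stood at 202 and 139 CPM right after NEE and 272 and 249 CPM at 24 h (0.61 ± 0.24 SE). HMMR, which helps to build the spindle, stood at 50.6 and 31.2 CPM against 61.5 and 69.7 CPM (0.68 ± 0.34 SE), and PLK1, the polo-like mitotic kinase, at 384 and 262 CPM against 425 and 432 CPM (0.41 ± 0.23 SE). In these 3 genes replicate 2 right after NEE was the lowest library. The list as a whole had the same feature: its median lay at 0.08 and −0.39 in replicates 1 and 2 right after NEE and at 0.07 and 0.27 at 24 h, relative to the mean of the 4 libraries. In bulk RNA of this kind, more cells in a phase and more RNA per cell cannot be told apart. Replicate 1 was level at both times, and the median of 0.29 was 0.10 without replicate 2 and 0.51 without replicate 1 right after NEE.

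Many of these genes are known to share a promoter design, in which the DREAM and MuvB complexes bind a CHR element, TTTGAA or TTCGAA, near CCAAT boxes bound by NF-Y. To make this design visible, the 250 bases before the start site are shown for CCNB2 and PLK1. Those of CDKN3, given above and not on this list, are shown beside them. Each CHR and CCAAT match on either strand is in capitals (RefSeq, GRCh38.p14, 5′ to 3′).
CCNB2 (chr15:59104896-59105145, plus strand): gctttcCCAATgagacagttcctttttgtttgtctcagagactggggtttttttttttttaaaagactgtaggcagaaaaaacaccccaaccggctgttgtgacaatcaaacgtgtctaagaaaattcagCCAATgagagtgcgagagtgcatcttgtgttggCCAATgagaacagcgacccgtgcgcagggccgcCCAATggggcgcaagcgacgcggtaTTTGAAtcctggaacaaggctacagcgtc
CDKN3 (chr14:54396757-54397006, plus strand): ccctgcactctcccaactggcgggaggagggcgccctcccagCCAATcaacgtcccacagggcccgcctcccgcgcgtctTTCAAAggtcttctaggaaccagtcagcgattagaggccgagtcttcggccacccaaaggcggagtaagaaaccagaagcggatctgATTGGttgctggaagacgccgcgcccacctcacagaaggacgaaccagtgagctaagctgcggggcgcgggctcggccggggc
PLK1 (chr16:23678639-23678888, plus strand): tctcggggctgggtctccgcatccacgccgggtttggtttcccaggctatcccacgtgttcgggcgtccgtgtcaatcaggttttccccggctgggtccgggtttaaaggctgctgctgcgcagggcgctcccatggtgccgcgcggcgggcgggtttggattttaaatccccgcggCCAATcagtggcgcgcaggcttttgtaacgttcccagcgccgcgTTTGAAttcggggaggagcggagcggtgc
In CCNB2 and in PLK1 the CHR lay at bases −29 to −24 before the start site, and CCNB2 had 4 CCAAT boxes upstream of it where PLK1 had 1. CDKN3 differed from both: it held a CHR match on the other strand, farther from the start site, at −170 to −165. Its CCAAT matches, 1 on each strand, lay at −208 to −204 and −83 to −79, on either side of that match. Of the 37 tested G2 and mitosis genes with a RefSeq promoter, 24 (64.9%) held both motifs in 1 window of 250 bases before to 50 bases after a start, against 6.63% of the 10160 genes. A CHR, with or without CCAAT, was in 28 of the 37 against 15.7%, and CCAAT, with or without a CHR, in 30 against 43.2%. These shares describe the promoters and were not set against the levels.

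Fewer than 1 in 2 genes of DNA replication and S phase had higher means at 24 h. All 49 listed genes passed the filter, 20 had a positive log2 fold change, 3 lay higher and 12 lower in both 24 h libraries, and the median was −0.07, running from −0.16 without replicate 1 to −0.04 without replicate 2 right after NEE, with −0.14 without replicate 1 at 24 h. POLE, the catalytic subunit of the leading-strand polymerase, stood at 85.8 and 88.3 CPM right after NEE and 53.5 and 56.7 CPM at 24 h (−0.66 ± 0.30 SE). CDC6, which loads the replicative helicase, stood at 309 and 348 CPM against 262 and 267 CPM (−0.31 ± 0.19 SE), and GINS1, a subunit of that helicase, at 154 and 135 CPM against 90.5 and 132 CPM (−0.38 ± 0.23 SE). In all 3 genes the times did not overlap, which a choice from the list by smallest p favours. In CDC6 the replicates right after NEE lay nearly as far apart as the nearest libraries of the 2 times. In GINS1 replicate 2 at 24 h nearly met the libraries right after NEE. The medians of the list in the 4 libraries stayed within 0.04, 0.07, 0.01 and −0.06 of their mean.

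In NRF2 targets the library medians of the 2 times did not overlap. The same was so, by smaller gaps, in other lists, among them proteasome subunits, DNA replication and YAP and TAZ targets. In proteasome subunits the nearest libraries of the 2 times nearly met, at 0.07 and 0.08. Of 33 listed genes 32 passed the filter, 26 had a positive log2 fold change, 11 lay higher and 0 lower in both 24 h libraries, and the median was 0.19. The library medians were −0.14 and −0.15 right after NEE and 0.14 and 0.18 at 24 h, and the list's median stayed between 0.19 and 0.28 when single libraries were left out. The 11 genes were FTH1, FTL and GCLC, given above, with NQO1, a quinone reductase, ALDH3A1, an aldehyde dehydrogenase, PRDX1, a peroxiredoxin, AKR1B10, AKR1C2 and AKR1C3, which are aldo-keto reductases, CBR3, a carbonyl reductase, and PIR. NQO1 stood at 2360 and 2307 CPM right after NEE and 3302 and 3591 CPM at 24 h, and ALDH3A1 at 4997 and 5630 CPM against 8772 and 9333 CPM. The core of the antioxidant response element bound by NRF2, TGACNNNGC, lay in 8 of 21 tested targets with a RefSeq promoter and in 19.6% of the 10160 genes.

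Proteasome subunits had small values of 1 sign. Of 31 listed genes 30 passed the filter, 28 were positive, 11 lay higher and 0 lower in both 24 h libraries, and the median was 0.19, with PSMD1 and PSMD2 at −0.11 and −0.06. PSMD1 was at 0.09 without replicate 1 right after NEE, and PSMD2 ranged from −1.02 without replicate 1 at 24 h to 0.51 without replicate 2 at 24 h. PSMB6, a catalytic core subunit, stood at 160 and 199 CPM right after NEE and 228 and 275 CPM at 24 h (0.49 ± 0.22 SE). PSMB3 and PSMB2, other core subunits, had log2 fold changes of 0.35 ± 0.19 and 0.30 ± 0.17 SE. The library medians were −0.27 and 0.07 right after NEE and 0.08 and 0.12 at 24 h, so replicate 1 right after NEE stood apart: without it the median of the list was 0.05, and without replicate 2 right after NEE it was 0.40.

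Most genes of NF-kB signalling and chemokines had lower means at 24 h, and their replicates were far apart. Of 31 listed genes 26 passed the filter, 1 of them was positive (NFKB1), 10 lay lower and 1 higher in both 24 h libraries, and the median was −0.46. CXCL2, a neutrophil chemokine, stood at 7.90 and 54.5 CPM right after NEE and 3.52 and 2.46 CPM at 24 h (−3.38 ± 1.56 SE). PTGS2, which makes prostaglandins, stood at 64.9 and 78.0 CPM against 36.9 and 39.0 CPM (−0.91 ± 0.59 SE), and LIF, a cytokine, at 47.5 and 47.9 CPM against 37.3 and 34.1 CPM (−0.42 ± 0.29 SE). CXCL2 rested on replicate 2 right after NEE, whereas in PTGS2 and LIF both replicates of each time lay close. The library medians were −0.11 and 0.67 right after NEE and −0.12 and −0.43 at 24 h, so replicate 1 was level at both times here too. Without replicate 2 right after NEE the median of the list was −0.09, and without replicate 1 at 24 h it was −0.94.

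Most genes on the 4 lists that follow, of YAP and TAZ targets, matrix, proteases and integrins, had lower means at 24 h. Other lists of cell shape and junctions lay near the median of all genes. Of 30 actin cytoskeleton genes 12 were positive, 4 lay higher and 5 lower in both 24 h libraries, with a median of −0.01. For 26 keratin and epithelial junction genes these numbers were 11, 2 and 5, with a median of −0.06. Of 21 tested YAP and TAZ targets, 3 were positive, 6 lay lower and 0 higher in both 24 h libraries, with a median of −0.23. With single libraries left out that median ran from −0.41, without replicate 1 right after NEE, to −0.17, and it was −0.39 without replicate 2 at 24 h. AJUBA, an adaptor at cell junctions, stood at 44.0 and 62.6 CPM right after NEE and 31.3 and 32.7 CPM at 24 h (−0.74 ± 0.45 SE). CCN2, a secreted matrix protein, overlapped, with 3.60 and 22.5 CPM against 5.50 and 3.72 CPM (−1.50 ± 1.01 SE), and its log2 fold change was 0.36 without replicate 2 right after NEE. Of 29 extracellular matrix genes 8 lay lower and 1 higher in both, with a median of −0.31 that was −0.59 without replicate 1 at 24 h and −0.12 without replicate 1 right after NEE. COL12A1, a collagen, stood at 8.29 and 5.45 CPM right after NEE and 1.16 and 3.38 CPM at 24 h (−1.60 ± 0.78 SE). Of 15 proteases and inhibitors 5 lay lower and 0 higher, with a median of −0.33, among them PLAU, the urokinase plasminogen activator, at 371 and 445 CPM against 217 and 258 CPM (−0.78 ± 0.50 SE). Of 26 integrin and focal adhesion genes 9 lay lower and 3 higher, with a median of −0.22 that was −0.09 without replicate 1 at 24 h, among them PARVA, which links integrins to actin, at 160 and 148 CPM against 123 and 115 CPM (−0.38 ± 0.17 SE).

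**Figure D4:**
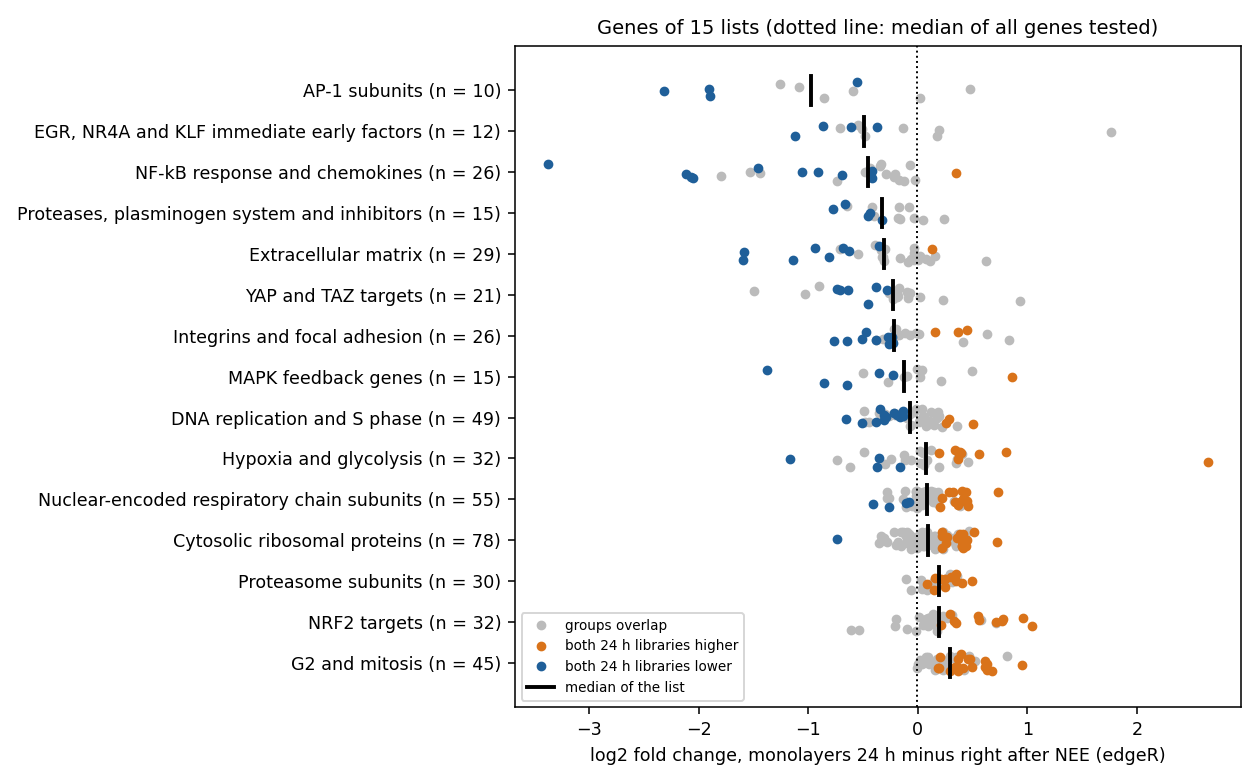
log2 fold change of each tested gene, 24 h minus right after NEE in monolayers (horizontal axis), for 15 gene lists (vertical axis, with the number tested). Black bars are list medians, from −0.98 in AP-1 subunits to 0.29 in G2 and mitosis, orange and blue points are genes whose 24 h libraries both lay above or below, and grey points are genes whose groups overlapped.

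Lists of metabolism and translation lay near the median of all genes. Of 55 nuclear-encoded respiratory chain subunits 13 lay higher and 4 lower in both 24 h libraries, with a median of 0.08 that was −0.09 without replicate 1 and 0.26 without replicate 2 at 24 h, and 0.13 without replicate 2 right after NEE. SDHC, an anchor subunit of complex II, stood at 145 and 164 CPM right after NEE and 225 and 196 CPM at 24 h (0.45 ± 0.17 SE). Of 78 cytosolic ribosomal proteins 17 lay higher and 1 lower, with a median of 0.09, and that median was −0.23 without replicate 1 and 0.34 without replicate 2 at 24 h. RPS3, of the small subunit, stood at 369 and 425 CPM against 530 and 545 CPM (0.44 ± 0.23 SE). Of 32 hypoxia and glycolysis genes 9 lay higher and 4 lower, with a median of 0.07 that was −0.05 without replicate 1 and 0.24 without replicate 2 at 24 h, and 0.14 without replicate 1 right after NEE. Beside CA9, which met the filter only with the 24 h libraries, they held ALDOC and TPI1. ALDOC, an aldolase, stood at 8.89 and 13.1 CPM against 17.8 and 20.3 CPM (0.80 ± 0.29 SE). TPI1, triosephosphate isomerase, stood at 2129 and 2941 CPM against 3125 and 3535 CPM (0.39 ± 0.18 SE).

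Single genes of the lists not yet described had the following values. CYP1A1, a monooxygenase and target of the aryl hydrocarbon receptor, stood at 0.60 and 4.57 CPM right after NEE, 27.3 and 39.0 CPM at 2 h and 8.72 and 24.7 CPM at 24 h (24 h minus right after, 2.69 ± 1.40 SE). TIPARP, which restrains that receptor, stood at 102 and 118 CPM, then 379 and 338 CPM, then 87.3 and 94.3 CPM (−0.28 ± 0.18 SE). CYP1A1 at 24 h thus lay between the earlier times, and TIPARP lay below both. Among the libraries compared, CYP1A1 met the filter only with those at 24 h, where it is high, so its difference adds no support. ID2, an inhibitor of helix-loop-helix factors, stood at 18.5 and 25.5 CPM right after NEE and 36.0 and 43.1 CPM at 24 h (0.84 ± 0.33 SE), and SMAD7, the inhibitor of TGF-beta signalling, at 9.59 and 21.9 CPM against 8.04 and 7.77 CPM (−1.0 ± 0.47 SE). RRP12, a ribosome assembly factor, stood at 257 and 187 CPM against 140 and 158 CPM (−0.58 ± 0.26 SE). The medians of the lists not described above lay between −0.40, in 11 genes of secreted liver-type proteins, and 0.32, in 8 genes of the aryl hydrocarbon receptor axis. The former turned to 0.23 without replicate 1 at 24 h and to 1.42 without replicate 2 right after NEE, and was −1.3 without replicate 2 at 24 h and −1.04 without replicate 1 right after NEE. The latter was 0.12 without replicate 2 at 24 h and 0.18 without replicate 1 right after NEE.

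The transcripts followed as references were GAPDH, ACTB, MALAT1 and NEAT1. GAPDH, a glycolytic enzyme, stood at 3443 and 4009 CPM right after NEE and 5372 and 4248 CPM at 24 h (0.37 ± 0.21 SE). ACTB, or beta actin, overlapped at −0.13 ± 0.22 SE, and so did the nuclear RNAs MALAT1 at −0.09 ± 0.56 and NEAT1 at 0.05 ± 0.28 SE. Single libraries set these signs: without replicate 1 at 24 h MALAT1 was at 0.27 and NEAT1 at −0.16, and without replicate 2 at 24 h ACTB was at 0.01.

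The same contrast in spheroids, from other libraries, gave another set of values. The 9 tested natural killer and T cell markers had lower means at 24 h there: their median log2 fold change was −1.05 in spheroids, 0 of 9 were positive, 4 lay lower in both 24 h libraries, and all 9 lay above the mean of the 4 spheroid libraries in replicate 2 right after NEE. In monolayers 8 of these 9 markers were negative too, with a median of −0.37, and 2 lay lower and 0 higher in both 24 h libraries. The part of these markers in the values of either culture was not tested. The difference between the cultures passed the test for 0 of 13407 genes (0.0%, edgeR interaction, adjusted p under 0.05), while 285 genes (2.13%) had an unadjusted p under 0.05 and 3 genes were called by DESeq2. Spheroids had 1862 genes (13.9%) higher and 1675 (12.5%) lower in both 24 h libraries. The cultures lay on opposite sides without overlap for 222 genes (1.66%) that were higher at 24 h in monolayers and 271 (2.02%) that were lower. FTH1 had the smallest p of the interaction: spheroids stood at 584 and 588 CPM right after NEE and 432 and 415 CPM at 24 h, the opposite order from monolayers (difference of the log2 fold changes 1.25 ± 0.20 SE, edgeR adjusted p = 0.614). TMEM37 also lay on opposite sides, with 158 and 127 CPM against 105 and 95.1 CPM in spheroids. NPTXR and MYLK overlapped in spheroids, where their log2 fold changes were 0.59 and 0.38. TUB, of the tubby family, stood at 39.0 and 34.0 CPM right after NEE and 26.9 and 22.4 CPM at 24 h in monolayers, against 12.9 and 8.50, then 21.6 and 26.9 CPM in spheroids. None of these 4 genes passed the interaction test (edgeR adjusted p = 1).

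By lists, the cultures were alike in some and apart in others, without a test of the difference. G2 and mitosis genes had medians of 0.29 in monolayers and 0.27 in spheroids, where 39 of 45 were positive and 20 lay higher in both 24 h libraries. DNA replication genes had medians of −0.07 and 0.32, and 44 of the 49 were positive in spheroids. NRF2 targets had medians of 0.19 and −0.07, respiratory chain subunits 0.08 and −0.31, with 29 of 55 lower in both 24 h spheroid libraries, and ribosomal proteins 0.09 and −0.22. AP-1 subunits had medians of −0.98 and 0.09, and NF-kB genes −0.46 and −0.70. In spheroids too the replicates of a time differed by as much as the times: the NF-kB median lay at 1.00 and −0.39 in the replicates right after NEE, relative to the mean of the 4 spheroid libraries. On that scale DNA replication lay at 0.01 and −0.35 right after NEE and 0.35 and 0.04 at 24 h. NRF2 targets lay at −0.08 and 0.16, then −0.23 and 0.21, and ribosomal proteins at 0.06 and 0.22, then 0.22 and −0.44. Respiratory chain subunits did not overlap, at 0.01 and 0.26, then −0.10 and −0.20.

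**Figure D5:**
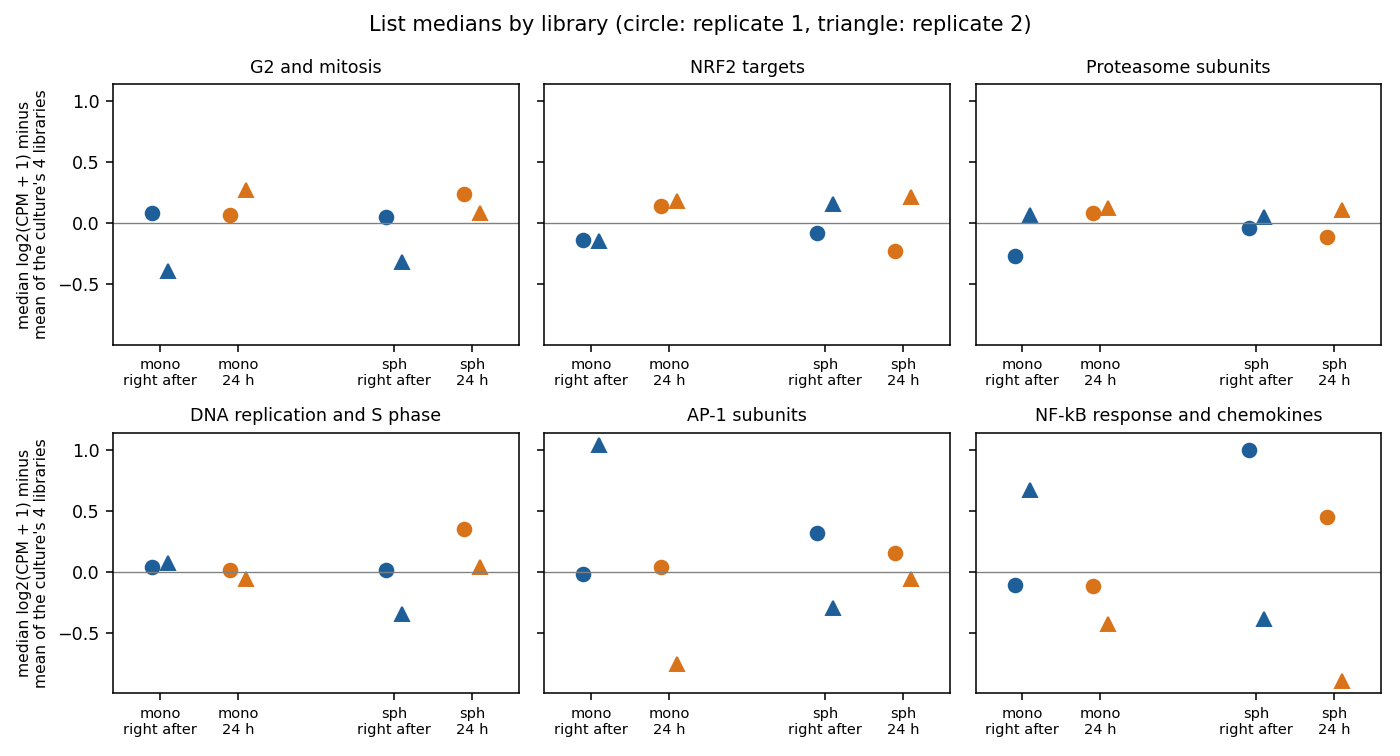
Median over the tested genes of 6 lists of log2(CPM + 1) minus the mean of the same culture's 4 libraries (vertical axis), for each library right after NEE (blue) and at 24 h (orange) in monolayers (mono) and spheroids (sph), with circles for replicate 1 and triangles for replicate 2. The 2 monolayer times are apart in NRF2 targets (−0.14 and −0.15 against 0.14 and 0.18). By smaller gaps they are also apart in proteasome subunits, DNA replication and NF-kB genes. In G2 and mitosis replicate 1 was level at 0.08 and 0.07.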

How the data were processed

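Each deposited file gives unnormalized counts for 1 library. The submitters' processing notes name the build GRCh38 and the tools FastQC, Trimmomatic, HISAT2 and featureCounts. Not given in the sources used here are their versions, the annotation release, the strandedness of counting and the treatment of multi-mapping reads, so overlapping genes and genes with copies are uncertain. The count files list 62700 gene IDs, of which 42343 matched a symbol and 58207 were placed by GENCODE release 29.

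Counts were used as deposited. The fit held 15 lysate libraries of 16031034 to 22009279 counts, all but replicate 1 of the monolayers before NEE, as group means with 7 residual degrees of freedom, TMM scaling and robust quasi-likelihood tests in edgeR 4.0.16 (R 4.3.3), with Benjamini-Hochberg adjustment over the 13407 genes. All groups shared 1 estimate of the spread, because 2 libraries a group give little of their own. The script was tested on simulated counts. P-values set a difference of group means against this shared spread, to which the spheroid libraries contribute. The main fit, with its SE and its ranking by p, did not use the replicate number. Alternatives were DESeq2 1.42.0, other scalings and filters, a minimum fold of 2, thinned counts, other sets of libraries, each library left out, and the replicate number as a block.

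The labels give the replicate number under a tag named batch, which was taken to pair the libraries, and do not say what the batch was. After subtraction of the group mean, libraries of the same number correlated at −0.0126 between right after and 24 h, 0.319 between right after and 2 h and 0.409 between 2 h and 24 h, over 9876 genes.

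As no gene was called, the 12 protein-coding genes of each sign with the smallest p were named, provided that the groups did not overlap and that 1 of the 2 means reached 5 CPM. Up to 3 members of each list by smallest p at that level, the 5 smallest p of the interaction, MALAT1, NEAT1, GAPDH and ACTB were added, and the text gives those a statement needs. Some items that the rule or the lists hold are not reported here. FOSB, PLK1, MYC, NR4A2, NFKB1, PSMD1, PSMD2, and the NRF2 targets listed beyond FTH1, FTL and GCLC, were named after their values were seen. The comparison, the 37 gene lists and the 7 marker lists were chosen with earlier results of these data known. Promoters came from RefSeq on GRCh38.p14.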

Additional observations from a re-analysis of the deposited data

Results flagged for a closer look

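In 14 of the 79 genes of the text, both 24 h libraries lay on 1 side of both libraries right after NEE in monolayers and on the other side in spheroids. Over all 13407 genes this was so for 222 (1.66%) with monolayers higher and 271 (2.02%) with monolayers lower. Many genes of the text were chosen for no overlap in monolayers or for a small p, so the 14 cannot be set against these shares. The difference of the log2 fold changes, monolayers minus spheroids, passed the edgeR interaction test in none of the 14 (0 genes called, 285 at an unadjusted p under 0.05, 3 by DESeq2). It was 1.25 for FTH1, 1.29 for TMEM37, 1.28 for ALDOC, 0.51 for TPI1, 0.76 for PSMB6 and 0.73 for PSMB3, which stood higher at 24 h in monolayers. It was −1.75 for TUB, −4.63 for FOSB, −1.08 for DUSP10, −1.28 for POLE, −0.96 for GINS1, −0.69 for TIPARP, −0.49 for PARVA and −1.46 for NR4A2, which stood lower. FOSB lay between 0 and 0.82 CPM in the 4 spheroid libraries, so its value there rests on few counts. In monolayers FOSB met the filter only with the libraries right after NEE, where it is high. NR4A2 stood at 9.10 and 6.92 CPM right after NEE and 5.89 and 4.63 CPM at 24 h in monolayers, and at 6.25 and 5.55, then 7.43 and 13.9 CPM in spheroids.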

How the results depend on the processing

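The count of genes called stayed at 0 in both comparisons under every alternative run except DESeq2, with 2 genes in monolayers and 3 in the difference between cultures, and no filter on low counts, with 43 (13 higher and 30 lower at 24 h) and 18. The cause was not tested. With the replicate block 0 genes were called in either comparison, and at an unadjusted p under 0.05 the block moved the count in monolayers from 248 to 448, or 596 with a block within each culture. It changed no call. The 2 further fits with a block, on the 4 libraries alone and on the 6 monolayer libraries after NEE, were added after seeing the data and called 0 genes. With single libraries left out 0 genes were called, and 294 to 406 had an unadjusted p under 0.05. In such a fit the remaining library of a group is assumed to vary like the other groups.

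Over 79 genes of the text and their alternatives, 1399 of 1417 log2 fold changes kept their sign and stayed uncalled, 9 passed the threshold under DESeq2 or no filter and 9 turned sign. With single libraries left out, the log2 fold change ran from −2.28 to 0.36 for CCN2, from −0.29 to 0.01 for ACTB, from −0.57 to 0.27 for MALAT1, from −0.16 to 0.25 for NEAT1, from −0.28 to 0.09 for PSMD1 and from −1.02 to 0.51 for PSMD2, which made up the 9. Of 700 list medians 34 moved by more than the spread of the single-library pairs. With 2 libraries a group, differences of less than the replicate spread were not detectable here.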
